A study of Homo sapiens with 2 samples.

Results

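The genes described here encode the α- and β-tubulins and the stathmins of 2 Ewing sarcoma cell lines, CHLA9 and TC71, each profiled as 1 droplet single-cell RNA library. They were chosen by name. The 10 genes, of all those counted, 22821 of which had a UMI in the kept cells of CHLA9 and 20793 in those of TC71, were the α-tubulins TUBA1A, TUBA1B and TUBA1C, the β-tubulins TUBB, TUBB2A, TUBB2B, TUBB3 and TUBB4B, and the stathmins STMN1 and STMN2. The medium of CHLA9 was IMDM with serum, insulin, transferrin and selenium, and that of TC71 was RPMI with less serum. Neither line carried a further treatment, and CHLA9 alone was sequenced again on a second instrument, so that line, medium and sequencing cannot be told apart. A cell was kept if it had 5000 or more UMIs (unique molecular identifiers, each marking 1 captured RNA molecule), 2000 or more genes, and no more than 15% of its UMIs in mitochondrial genes. These were 4524 of 5077 barcodes in CHLA9 and 1729 of 8468 in TC71.

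Microtubules are polymers of α/β-tubulin dimers. Each subunit comes in several isotypes, the products of separate genes, which differ mainly in an acidic carboxy-terminal tail that motors and modifying enzymes read. Dividing cells build the mitotic spindle mostly from TUBA1B, TUBA1C, TUBB and TUBB4B, whereas TUBA1A, TUBB2A, TUBB2B and TUBB3 are known for their high levels in developing neurons. Stathmins bind free tubulin dimers and promote the shrinkage of microtubules. STMN1 is found in most proliferating cells and is switched off by phosphorylation at mitosis, and STMN2 is an axonal member of the family. Ewing sarcoma is a tumour of bone and soft tissue driven by an EWSR1 fusion, often EWSR1-FLI1, and its cells can carry neural markers.

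The last 90 coding bases of the 5 β-tubulins, stop codon included, show how alike the ends of their coding sequences are. They were read from hg38 at the positions of the GENCODE 44 canonical transcripts, all within exon 4 of the gene, and are written 5′ to 3′ on the coding strand. Capitals mark bases that lie in no run of 20 bases shared with the coding sequence of another of the 8 tubulin genes. TUBB2A (chr6:3153863-3153952) and TUBB2B (chr6:3224751-3224840) are neighbours on the minus strand of chromosome 6, on which TUBB (chr6:30724308-30724397) lies on the plus strand.
TUBB: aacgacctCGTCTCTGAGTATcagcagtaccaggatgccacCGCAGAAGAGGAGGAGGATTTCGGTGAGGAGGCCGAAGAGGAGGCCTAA
TUBB2A: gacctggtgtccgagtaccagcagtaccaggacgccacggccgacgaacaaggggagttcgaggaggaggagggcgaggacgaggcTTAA
TUBB2B: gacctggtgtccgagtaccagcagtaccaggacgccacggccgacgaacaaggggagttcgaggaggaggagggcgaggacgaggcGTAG
TUBB4B lies on the plus strand of chromosome 9 (chr9:137243467-137243556) and TUBB3 on that of chromosome 16 (chr16:89935715-89935804).
TUBB4B: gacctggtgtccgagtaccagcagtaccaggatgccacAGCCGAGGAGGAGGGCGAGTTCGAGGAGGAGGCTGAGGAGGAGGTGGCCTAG
TUBB3: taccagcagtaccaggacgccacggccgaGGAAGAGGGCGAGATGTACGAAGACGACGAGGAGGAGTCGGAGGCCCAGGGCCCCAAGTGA

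By this measure 4 of the 90 bases were its own in each of TUBB2A and TUBB2B, whereas TUBB4B had 52, TUBB3 61 and TUBB 62. The tails of TUBB2A and TUBB2B thus parted only at their last bases. Over the first 1200 coding bases, TUBB2A and TUBB2B were identical at 98.1% of positions and TUBA1B and TUBA1C also at 98.1%, whereas TUBB was identical with TUBB2A at 84.8% and with TUBB3 at 82.8%. Reads that match more than 1 gene are discarded by the counting software. Of the 410 windows of 91 bases in the last 500 bases of the canonical transcript, the share also found in another counted gene was 98.8% for TUBB3, 50.98% for TUBB2A, 25.1% for TUBA1B, 12.9% for TUBB4B and 10.0% for TUBA1A. It was 0% for TUBA1C, TUBB, TUBB2B, STMN1 and STMN2. The coding tails and the transcript ends thus did not rank the genes alike. TUBB2B had 4 own bases in its tail but 0% of windows shared, and TUBB3 had 61 but 98.8%. For TUBB3 the other genes were TUBB2A, TUBB2B, TUBB4B and AC092143.1, a read-through gene that overlaps it on the same strand and held 0 UMIs in both lines, which allows up to 3 UMIs in each. The counts of TUBB3 and, in part, of TUBB2A can therefore be too low, and how far was not tested. TUBA1A and TUBA1C overlap on opposite strands, and whether counting used the strand was not given in the sources used here.

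As a label check, all 10 Ewing sarcoma marker genes were counted in both lines, at 9.89 to 2510.5 CPM (UMIs per 1000000 UMIs of the kept cells) in CHLA9 and 16.3 to 1450.8 CPM in TC71. CD99, a surface marker of this tumour, stood at 1141 CPM in CHLA9 and 401.5 CPM in TC71. The 14 markers of blood, endothelium, epithelium, fibroblasts and glia summed to 100.1 CPM in CHLA9 and 19.4 CPM in TC71. Most of this came from COL1A1, DCN and PDGFRB. CD3E was at 0 UMIs in both lines and PECAM1, KRT19 and GFAP in TC71. The part of these genes in the results was not tested. The sum of UMIs over kept cells was 174975302 for CHLA9 and 58355173 for TC71, with medians of 34656 and 33370 UMIs a cell. The libraries shared 16 barcodes, 3 of them among the kept cells. Scrublet, a doublet caller, marked 7.74% of the CHLA9 cells and 0.694% of the TC71 cells, which were kept. Since each line has a single library, and its cells cannot stand for replicates, no p-value is given, and every interval below is a 95% interval for counting error only.

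The 10 genes made up 0.805% of all UMIs in CHLA9 and 0.670% in TC71. In both lines TUBA1B, TUBB and STMN1 were the most abundant, TUBB4B and TUBA1C followed at lower levels, and TUBB3 and STMN2 were at or near the limit of detection. The largest relative differences between the lines lay in TUBB2B and TUBB2A, both higher in TC71. A UMI counts a molecule once whatever its length, so levels can be set side by side across genes without a length correction, apart from the reads lost to shared ends.

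TUBA1B, the main α-tubulin of dividing cells, stood at 2667 CPM in CHLA9 (Poisson interval 2659 to 2674) and 2744 CPM in TC71 (2730 to 2757). The 2 libraries thus differed by 1.03-fold. TUBA1C, a close relative also used in division, was at 372.0 CPM in CHLA9 and 468.2 CPM in TC71, 1.26-fold higher in TC71. TUBA1A, the α-tubulin that dominates in developing neurons, was at 132.2 CPM (130.5 to 133.9) in CHLA9 and 204.2 CPM (200.6 to 207.9) in TC71, 1.54-fold higher in TC71. The order TUBA1B over TUBA1C over TUBA1A was the same in both.

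TUBB, the β-tubulin of most dividing cells, was at 2603 CPM (2595 to 2610) in CHLA9 and 1581 CPM (1571 to 1592) in TC71, 1.65-fold higher in CHLA9. TUBB4B, a β-tubulin found widely and in cilia, went the other way, with 391.0 CPM in CHLA9 and 537.7 CPM in TC71, 1.38-fold higher in TC71. TUBB2A, a neuronal-associated isotype, was at 18.5 CPM (17.9 to 19.2) in CHLA9 and 38.1 CPM (36.6 to 39.8) in TC71. Its 2.06-fold difference had a log2 interval of -1.12 to -0.96 for CHLA9 over TC71, which holds the 2-fold limit. TUBB2B, whose mutations disturb the migration of cortical neurons, was at 9.72 CPM (9.26 to 10.2) in CHLA9 and 39.8 CPM (38.2 to 41.4) in TC71, 4.10-fold higher in TC71. TUBB2A and TUBB2B had like CPM in TC71, whereas in CHLA9 TUBB2A was the higher. Of this pair, only TUBB2A shares end windows with other counted genes, so its CPM can be too low beside that of TUBB2B. TUBB3, the classic neuronal β-tubulin, had 59 UMIs in CHLA9 and 22 in TC71, which is 0.337 and 0.377 CPM, and the intervals overlapped. These low counts come with the shared 3′ end described above.

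STMN1 was at 1853 CPM (1846 to 1859) in CHLA9 and 1084 CPM (1075 to 1092) in TC71, 1.71-fold higher in CHLA9. STMN2 had 1 UMI in each line, under the 3 counts taken as the floor, so no fold is given. Of this pair, only STMN1 was thus detectable beyond a single molecule.

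**Figure D1:**
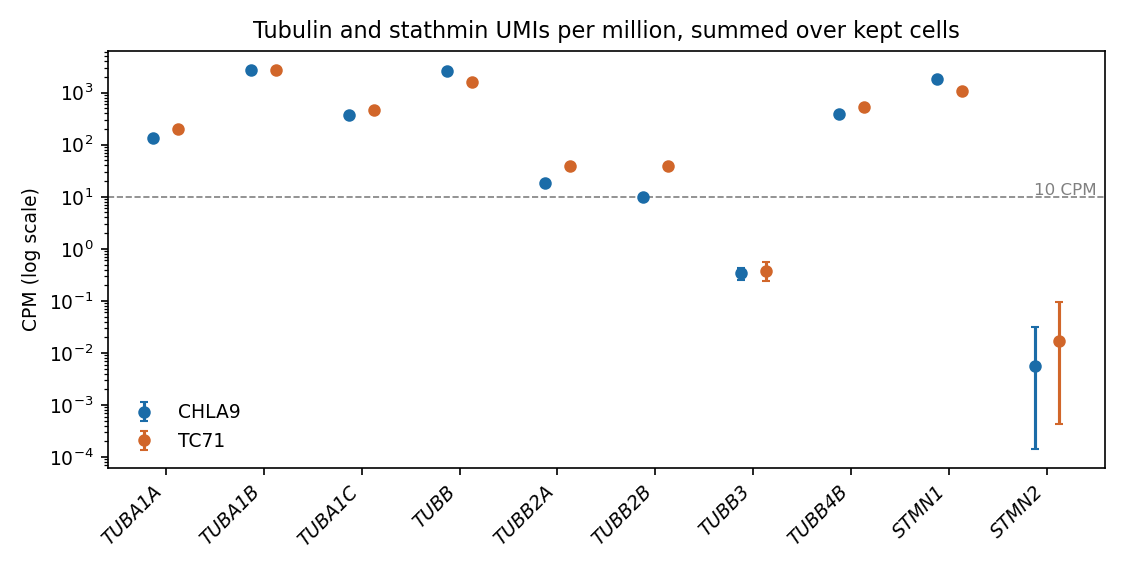
CPM of the 10 genes on a log axis in CHLA9 (blue) and TC71 (orange), from summed UMIs of the kept cells, with exact 95% Poisson intervals as bars; the dashed line is 10 CPM. TUBB2A and TUBB2B sit higher in TC71, TUBB and STMN1 higher in CHLA9, and TUBB3 and STMN2 fall below 1 CPM in both.

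Of the 8 genes with at least 10 CPM in either line, 2 differed at least 2-fold, TUBB2A and TUBB2B, both higher in TC71. Among all 9258 genes at that level, 25.1% differed 2-fold in either direction, and 2 of 8 was close to that share. Of all genes, 8.8% were higher in TC71, the direction of both genes, which is a smaller share than 2 of 8. Neither comparison was tested. The median log2 ratio of CHLA9 over TC71 was -0.40 over the 8 genes and 0.21 over all genes. The direction of each of the 8 was the same under 6 other settings of filters and scale, in which the log2 ratio of TUBA1B ranged from -0.12 to -0.03.

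TUBA1B and TUBB, the isotypes known from dividing cells, led the mix in both lines. Of the α-tubulin UMIs of the 3 genes, TUBA1B held 84.1% (Clopper-Pearson interval 84.0 to 84.2) in CHLA9 and 80.3% (80.1 to 80.5) in TC71. TUBA1C held 11.7% and 13.7%, and TUBA1A 4.17% and 5.98%. Of the β-tubulin UMIs of the 5 genes, TUBB held 86.1% (86.0 to 86.2) in CHLA9 and 72.0% (71.7 to 72.2) in TC71. TUBB4B took 12.9% in CHLA9 and 24.5% (24.2 to 24.7) in TC71, so the main shift of the β-tubulins between the lines lay between these 2 isotypes. TUBB2A held 0.613% and 1.74%, TUBB2B 0.321% and 1.81%, and TUBB3 0.0112% and 0.0172%, in CHLA9 and TC71.

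**Figure D2:**
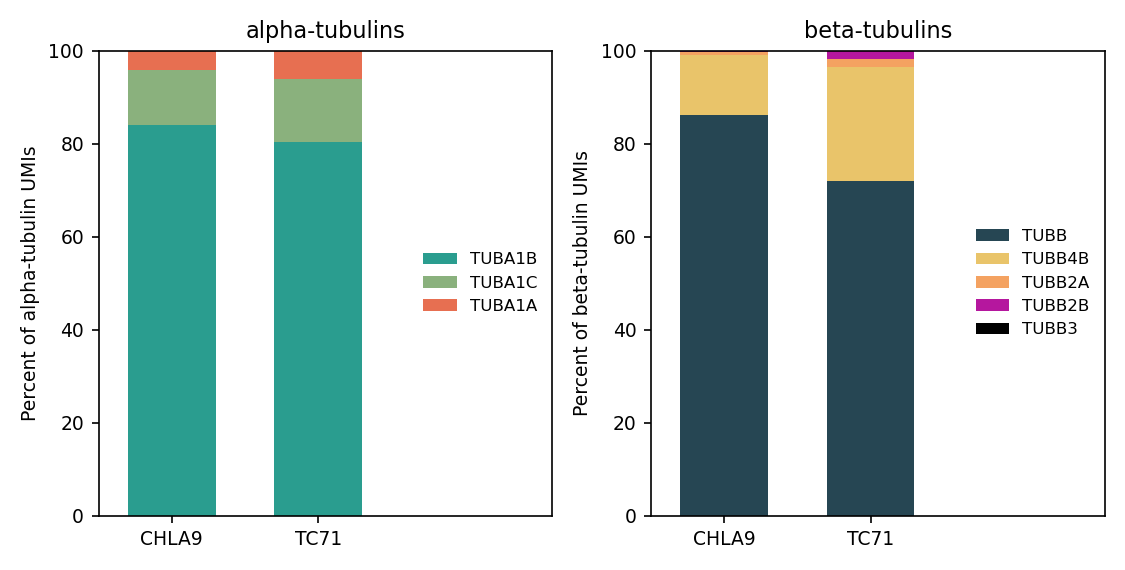
Percent of the UMIs of the 3 α-tubulin genes (left) and of the 5 β-tubulin genes (right) in CHLA9 and TC71, as stacked bars from 0 to 100%. TUBB takes 86.1% of β-tubulin UMIs in CHLA9 and 72.0% in TC71, with TUBB4B and a thin band of TUBB2A and TUBB2B making up the rest.

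The 5 neuronal-associated genes, TUBA1A, TUBB2A, TUBB2B, TUBB3 and STMN2, together held 1.999% (1.98 to 2.02) of the UMIs of the 10 genes in CHLA9 and 4.22% (4.16 to 4.28) in TC71. Most of this was TUBA1A, with 23134 of 28135 UMIs in CHLA9 and 11917 of 16488 in TC71. Within the β-tubulins alone, the neuronal-associated share was 0.946% (0.920 to 0.972) in CHLA9 and 3.56% (3.46 to 3.67) in TC71. Reads lost to shared ends touch both sides of these shares, TUBB3, TUBB2A and TUBA1A on one and TUBA1B and TUBB4B on the other. How far this moves the shares was not tested. The lines also differed in the balance of the 3 α- and 5 β-tubulin genes. There were 1.05 α-tubulin UMIs for each β-tubulin UMI in CHLA9 (1.05 to 1.05) and 1.55 in TC71 (1.54 to 1.57). Of the end windows, 25.1% were shared for TUBA1B and 0% for TUBB, and what this does to the ratio was not tested. TUBB6, a β-tubulin outside the 10 genes and so outside this ratio, was at 200.7 CPM in CHLA9 and 242.4 CPM in TC71. With it included, the share of TUBB was 80.8% and 64.8%.

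Across cells, the 3 most abundant genes were in nearly every cell at equal depth, and TUBB2A and TUBB2B in a minority. After each cell was thinned to 5000 UMIs, TUBA1B had a UMI in 99.96% of CHLA9 and 100% of TC71 cells, TUBB in 100% and 99.9%, and STMN1 in 99.96% and 98.96%. A median CHLA9 cell then held 13 UMIs of TUBA1B, 13 of TUBB and 9 of STMN1, and a median TC71 cell 13, 8 and 5. TUBA1A was found in 43.1% (41.7 to 44.6) of CHLA9 cells and 63.7% (61.4 to 65.9) of TC71 cells. TUBB2A was found in 9.39% and 15.4%, and TUBB2B in 4.16% (3.59 to 4.78) and 17.8% (16.0 to 19.7). Without thinning TUBB2B was in 18.1% of CHLA9 and 64.0% of TC71 cells. No cell type that should lack these genes was in the libraries, so that free RNA and low expression cannot be told apart for the rarer genes.

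TUBB2B was spread more unevenly over the CHLA9 cells than TUBB2A. In thinned CHLA9 cells the variance of its counts was 1.34 times their mean, against 1.01 for TUBB2A, and in TC71 the values were 1.12 and 1.07. At full depth, 103 CHLA9 cells (2.28%) reached 100 CPM of TUBB2B and held 33.4% of its UMIs, while 58 cells reached 100 CPM of TUBB2A and held 6.76% of its UMIs. In TC71, 175 cells (10.1%) reached that level of TUBB2B and 136 that of TUBB2A, with 30.6% and 23.1% of the UMIs. In CHLA9, TUBB2A was more frequent in cells with TUBB2B than in those without it at 5000 and at 10000 UMIs. In TC71 the order changed between these depths. Whether the pair went together was not tested, since the cells of a line share 1 library. At 5000 UMIs, TUBB2A was in 11.7% (7.48 to 17.2) of the 188 CHLA9 cells with TUBB2B and 9.29% (8.45 to 10.2) of the 4336 without it, and in TC71 in 16.6% (12.6 to 21.2) and 15.1% (13.3 to 17.1), with overlapping intervals in both lines. At 10000 UMIs the intervals parted in CHLA9, with 22.3% (17.9 to 27.2) of 328 cells and 16.4% (15.3 to 17.6) of 4182, and overlapped in TC71, with 28.4% (24.4 to 32.6) and 32.7% (30.1 to 35.5). TUBA1A was also uneven in CHLA9, where the highest 5% of cells held 16.5% of its UMIs, against 10.2% in TC71.

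Cell cycle phases were assigned in each library from published lists of S and G2M genes, from which TUBB4B, the only one of the 10 genes in them, had been removed. In CHLA9 1019 cells were placed in G1, 1746 in S and 1759 in G2M, and in TC71 241, 840 and 648. Median depth was higher in G2M than in G1 cells, at 40915 against 29196 UMIs in CHLA9 and 37279 against 29278 in TC71. The contrast between phases was not equally sharp. The G2M list took a median of 0.435% of the UMIs of G1 cells and 1.59% of those of G2M cells in CHLA9, but 0.627% and 1.15% in TC71. In S cells it took 0.586% in CHLA9 and 0.534% in TC71, so that the S cells of TC71 lay below its G1 cells. Of a list of 16 spindle genes, the 7 that were not used for the scoring had a median log2 ratio of G2M over G1 of 2.87 in CHLA9 and 1.24 in TC71.

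TUBB4B differed most between the phases of CHLA9, TUBB4B and TUBA1C did so about equally in TC71, and TUBA1B and STMN1 hardly moved. TUBB4B was at 268.0 CPM (262.3 to 273.7) in G1, 250.4 CPM (246.6 to 254.3) in S and 563.6 CPM (558.3 to 568.9) in G2M cells of CHLA9. The G2M cells thus stood apart from the other phases, at a log2 ratio to G1 of 1.07 (1.04 to 1.11), or 2.10-fold. In TC71 it was at 533.3 CPM in G1, 449.6 CPM in S and 640.8 CPM in G2M cells, 1.20-fold higher in G2M than in G1 and 1.43-fold higher than in S. The G1 and S cells of TC71 lay well above those of CHLA9, and the G2M cells of the lines lay closer together. Whether the lines differ in this response was not tested, since each has 1 library.

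TUBA1C had its lowest level in S. It was at 411.1 CPM in G1, 249.7 CPM in S and 460.9 CPM in the CHLA9 cells of G2M, and at 455.2, 394.1 and 557.7 CPM in those of TC71. G2M cells were 1.12-fold over G1 in CHLA9 and 1.23-fold in TC71, but 1.85-fold and 1.42-fold over S. TUBA1A was lowest in G2M in CHLA9, with 169.9 CPM in G1, 132.4 CPM in S and 116.3 CPM in G2M cells, a log2 ratio of G2M over G1 of -0.55 (-0.60 to -0.50). In TC71 its levels were 216.1, 201.3 and 204.2 CPM, and the interval of its ratio (-0.17 to 0.00) reached 0. TUBB was 1.15-fold higher in G2M than in G1 cells of CHLA9 and 1.09-fold in TC71. TUBA1B and STMN1 had log2 ratios between -0.03 and 0.00 in both lines. TUBB2A was at -0.15 (-0.29 to -0.01) in CHLA9 and -0.19 (-0.39 to 0.01) in TC71, and TUBB2B was at 0.05 (-0.15 to 0.26) in CHLA9 and -0.20 (-0.39 to -0.01) in TC71.

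**Figure D3:**
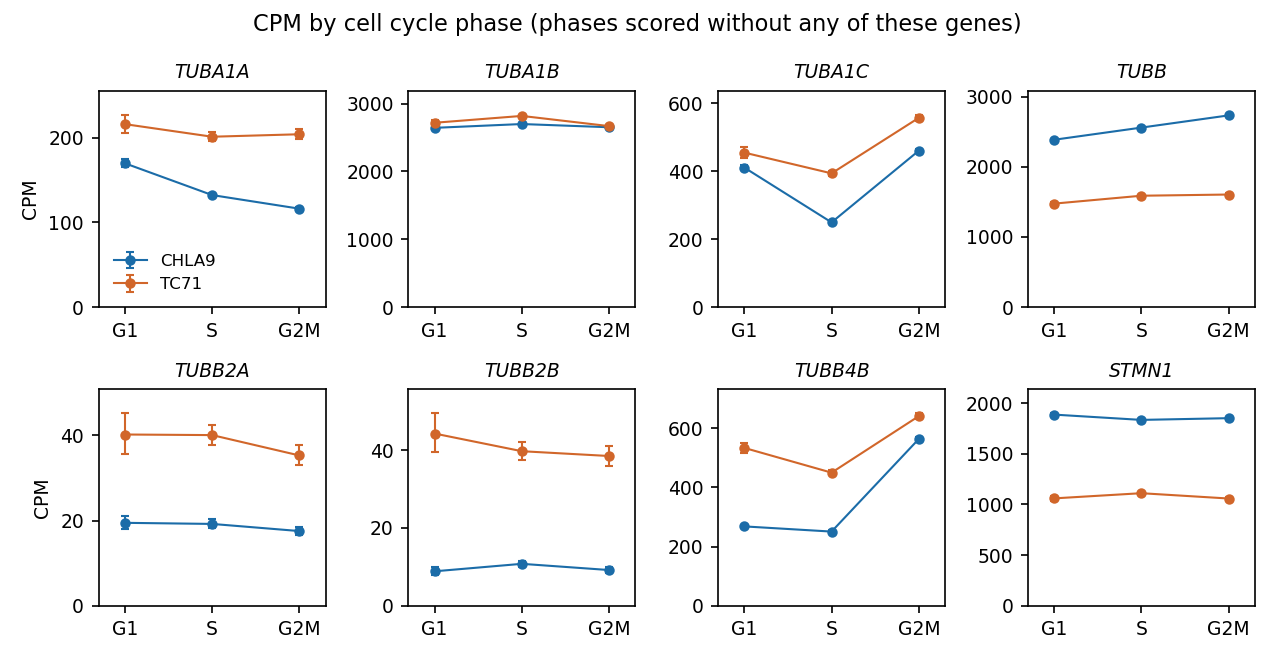
CPM of 8 genes in cells placed in G1, S and G2M, in CHLA9 (blue) and TC71 (orange), each panel from 0 on its own linear axis with exact 95% Poisson intervals. The TUBB4B points of the G2M cells lie at 563.6 CPM (CHLA9) and 640.8 CPM (TC71), TUBA1C dips in S, and TUBA1B and STMN1 run nearly flat.

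By the 1.5-fold limit, 1 of 7 counted genes was higher in G2M than in G1 in CHLA9, TUBB4B, against 5.61% of all genes, and 0 of 8 in TC71, against 6.34%. No test stands behind either count. Against S, 2 of 8 were higher in G2M in CHLA9, TUBB4B and TUBA1C, against 3.23% of all genes, and 0 of 8 in TC71, against 3.18%. In CHLA9, 1 of 8 was lower in S than in G1, TUBA1C, against 1% of all genes, and 0 of 8 in TC71, against 0.548%.

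The cells of each line were put in 10 bins, a finer order than the phases, by the percent of their UMIs in the G2M list, again without TUBB4B. In CHLA9 TUBB4B went from 168.7 CPM in the lowest to 715.1 CPM in the highest bin, 4.24-fold, and was higher in each bin than in the one before it. In TC71 it held between 446.8 and 486.0 CPM over the first 6 bins and then reached 681.4 CPM in the last, 1.52-fold over the first. TUBA1C went from 267.7 to 539.7 CPM in CHLA9, 2.02-fold, and from 412.1 to 608.8 CPM in TC71, 1.477-fold. TUBA1A was highest in the lowest bin in both lines, with 214.4 CPM there and 119.0 CPM in the highest bin of CHLA9, and 231.6 and 211.0 CPM in TC71. TUBA1B was lower at each step in TC71, from 2950 to 2629 CPM, and stayed between 2581 and 2768 CPM in CHLA9. Median depth per cell was also higher in the last bin than in the first, at 46410 against 29681 UMIs in CHLA9 and 43268 against 30296 in TC71. Between the highest and the lowest 25% of cells in this order, 2 of 8 genes were at least 1.5-fold higher in CHLA9, TUBB4B and TUBA1C, against 6.4% of all genes, 1 of 8 was lower, TUBA1A, against 2.89%, and 1 of 8 was higher in TC71, TUBB4B, against 10.2%, with 0 of 8 lower, against 1.06%. This order thus passed TUBA1C and TUBA1A in CHLA9 and TUBB4B in TC71, which the comparison of G2M with G1 did not. TUBB4B in TC71 passed only narrowly, at a log2 ratio of 0.586 (0.541 to 0.632), an interval that holds the 1.5-fold limit. The 1 of 8 in TC71 was also close to the share of all genes.

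**Figure D4:**
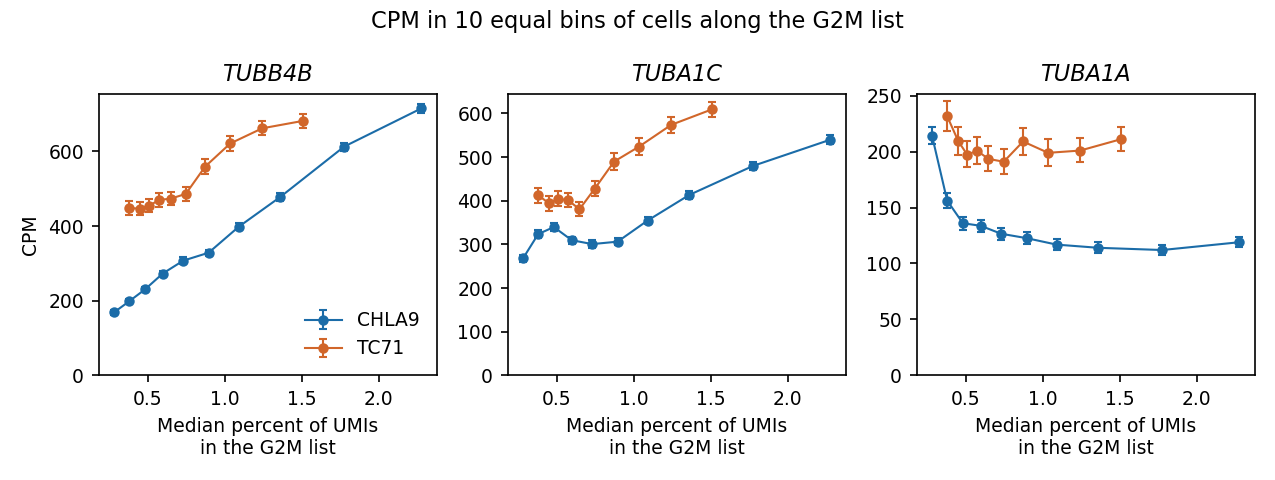
CPM of TUBB4B, TUBA1C and TUBA1A in 10 bins of cells, placed at the bin's median percent of UMIs in the G2M list, with exact 95% Poisson intervals. TUBB4B runs from 168.7 to 715.1 CPM in CHLA9 (blue) and from 447.7 to 681.4 CPM in TC71 (orange), and TUBA1A is highest at the left end.

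The mix of isotypes shifted with phase. TUBB4B took 9.99% of the β-tubulin UMIs of CHLA9 in G1, 8.82% in S and 16.96% in G2M cells, and 25.5%, 21.2% and 27.6% in TC71. TUBA1C took 12.8%, 8.11% and 14.3% of the α-tubulin UMIs of CHLA9 and 13.4%, 11.5% and 16.3% of those of TC71. The neuronal-associated share of all 10 genes was 2.55% in G1, 2.10% in S and 1.70% in G2M cells of CHLA9, and 4.60%, 4.24% and 4.09% in TC71, so that the share of TC71 was the higher in each phase. Within the 10 genes, the α-tubulin UMIs per β-tubulin UMI went from 1.20 in G1 to 0.97 in G2M in CHLA9 and from 1.62 to 1.478 in TC71.

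The 250 bases before the transcription start of TUBB4B and TUBA1C, the 2 genes that stood highest in G2M against S, are shown because promoters of genes of late cycle often carry a cell cycle genes homology region and CCAAT boxes, the binding sites of the MuvB complex and of NF-Y. The letters searched, on both strands, were TTTGAA or TTCGAA for the first and CCAAT for the second. They are in capitals, and no match overlapped another in these windows. The sequences are RefSeq's on GRCh38.p14, written 5′ to 3′ on the plus strand, which is the strand of both genes. The TUBB4B window is chr9:137241037-137241286 and that of TUBA1C is chr12:49264832-49265081, at the GENCODE canonical start.
TUBB4B upstream: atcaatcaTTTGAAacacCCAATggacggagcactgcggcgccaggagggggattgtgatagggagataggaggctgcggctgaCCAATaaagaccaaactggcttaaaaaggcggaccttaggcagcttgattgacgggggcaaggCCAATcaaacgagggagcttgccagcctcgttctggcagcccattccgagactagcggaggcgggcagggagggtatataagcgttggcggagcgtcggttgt
TUBA1C upstream: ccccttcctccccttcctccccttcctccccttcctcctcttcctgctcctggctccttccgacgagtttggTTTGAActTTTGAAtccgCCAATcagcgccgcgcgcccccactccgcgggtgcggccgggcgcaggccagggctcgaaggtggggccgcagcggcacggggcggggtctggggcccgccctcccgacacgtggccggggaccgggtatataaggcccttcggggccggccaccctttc

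TTTGAA stood 242 bases before the start in TUBB4B, with CCAAT at 232, 166 and 103. In TUBA1C, TTTGAA stood at 178 and 170 and CCAAT at 160. Of all 35116 RefSeq windows of this kind, 14.3% held TTTGAA or TTCGAA, 32.0% held CCAAT, 5.05% held both and 2.93% held at least 3 CCAAT. The search covered 15 such windows from 9 of the 10 genes, with STMN2 left out. Both motifs were found in 4 of the 15, those of TUBB4B, a pair of starts of TUBA1C and 1 start of TUBB3. CCAAT was found in 9 of the 15 windows, from 7 of the 9 genes, among them STMN1 and TUBA1A. The windows of TUBA1A, TUBA1B, TUBB, TUBB2A, TUBB2B and STMN1 held no TTTGAA or TTCGAA. A match is a run of letters, and binding was not measured.

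Across single cells thinned to 5000 UMIs, the genes most like TUBB4B were UBE2S, CCNB1 and KPNA2, with Spearman's rho of 0.388, 0.396 and 0.385 over the 4524 cells of CHLA9 and 0.213, 0.199 and 0.188 over the 1729 of TC71. The same 3 genes were the most like TUBA1C, at 0.274, 0.293 and 0.283 in CHLA9 and 0.221, 0.212 and 0.226 in TC71. CCNB1 is cyclin B1, UBE2S the elongating ubiquitin enzyme of the anaphase-promoting complex, and KPNA2 an importin. All points of a line share 1 library, and thinning equalised depth. TUBA1C and TUBB4B had the highest rho among the 10 genes themselves, 0.205 in CHLA9 and 0.187 in TC71.

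The other pairs were weaker. TUBA1B and STMN1 had a rho of 0.138 and 0.117 and TUBA1B and TUBB 0.072 and 0.147, while TUBB2A and TUBB2B, neighbours on the chromosome, had 0.016 and 0.015. The genes most like TUBB were HIST1H4C, CDK1 and NUSAP1, at 0.148, 0.137 and 0.128 in CHLA9 and 0.088, 0.066 and 0.066 in TC71. Those most like STMN1 were H3F3A, H2AFZ and HMGB1, chromatin genes, at 0.129, 0.116 and 0.141 in CHLA9 and 0.100, 0.113 and 0.067 in TC71. Among those most like TUBA1B were GAPDH and RPS3, at 0.126 and 0.062 in CHLA9 and 0.222 and 0.231 in TC71. Those most like TUBA1A were TMSB10, EEF1A1 and LGALS1, at 0.049 to 0.133 and 0.088 to 0.139. Values this low in sparse counts are given as a description only.

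Of the tubulins outside the 10 genes, 3 of 10 further α- and β-tubulins reached 10 CPM in a line. TUBB4A, the β-tubulin of oligodendrocytes and neurons, was level at 26.2 CPM in CHLA9 and 27.5 CPM in TC71. TUBA4A was at 6.60 CPM in CHLA9 and 21.5 CPM in TC71, 3.27-fold higher in TC71, the only one of the 3 past 2-fold. TUBG1, the γ-tubulin that nucleates microtubules at centrosomes, was at 145.5 CPM (143.8 to 147.3) in CHLA9 and 57.2 CPM (55.3 to 59.2) in TC71, 2.54-fold higher in CHLA9. TUBG2, its close relative, was at 11.1 CPM in CHLA9 and 2.84 CPM in TC71, 3.91-fold higher in CHLA9. These were the 2 past 2-fold of the 4 γ-, δ- and ε-tubulins, against 25.1% of all genes.

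STMN3 and STMN4, the stathmins outside the 10 genes, differed in opposite directions. STMN4, a neural stathmin, had 139 UMIs in CHLA9, which is 0.794 CPM (0.668 to 0.938), and 9469 UMIs in TC71, which is 162.3 CPM (159.0 to 165.6). The ratio was 204.3-fold (172.8 to 243.3), and a UMI was found in 2.83% of CHLA9 and 96.5% of TC71 cells at full depth. The STMN4 level of TC71 lay below its levels of STMN1 and TUBA1A. STMN3, also neural, was at 54.9 CPM in CHLA9 and 25.7 CPM in TC71, 2.14-fold higher in CHLA9.

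Genes of neuronal microtubules and axons did not go one way. Of 20 such genes, 11 reached 10 CPM in a line, and of these 2 were at least 2-fold higher in CHLA9 and 5 in TC71. Among all genes 25.1% passed either way and 8.8% were higher in TC71. The list had a median log2 ratio of CHLA9 over TC71 of -0.76 against 0.21 over all genes. NEFL, a neurofilament subunit, had 3 UMIs in CHLA9 and 51.5 CPM in TC71, a ratio of 3002 (1026 to 14567). GAP43, a growth cone protein, had 1 UMI in CHLA9 and 31.3 CPM in TC71, a ratio of 5472 with a counting interval from 981 to 216256. NEFM, another neurofilament subunit, was at 1.62 CPM in CHLA9 and 12.05 CPM in TC71, but 281 of its 284 UMIs in CHLA9 lay in 2 cells. DPYSL5 and DPYSL3, relatives of CRMP1, were 7.07-fold and 4.56-fold higher in TC71. CRMP1, a regulator of growth cone collapse, and ELAVL3, a neuronal RNA-binding protein, went the other way, with 55.5 and 21.2 CPM in CHLA9 and 0.685 and 0.223 CPM in TC71. The most abundant of the list differed less, with MAPT, the microtubule-binding protein tau, at 463.3 and 340.9 CPM and UCHL1, a neuronal deubiquitinase, at 309.5 and 525.4 CPM in CHLA9 and TC71.

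**Figure D5:**
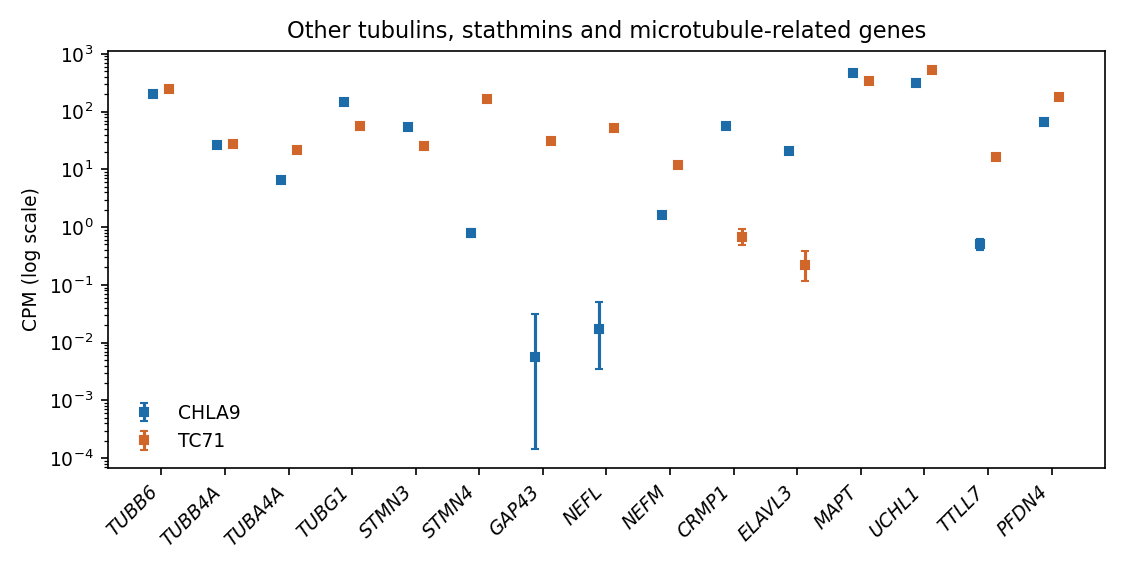
CPM on a log axis of 15 tubulins, stathmins and microtubule-related genes outside the 10, in CHLA9 (blue) and TC71 (orange), with exact 95% Poisson intervals. STMN4, GAP43 and NEFL are far higher in TC71, CRMP1 and ELAVL3 far higher in CHLA9, and TUBB6, TUBB4A and MAPT nearly level.

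Few of the genes that fold tubulin differed 2-fold between the lines. Among those that modify it, the share was close to the 25.1% of all genes. Of 22 genes of tubulin folding and autoregulation, which include the subunits of the CCT chaperonin and of prefoldin, 21 were counted and 1 was past 2-fold, the prefoldin subunit PFDN4, at 66.1 CPM in CHLA9 and 181.4 CPM in TC71. None of the 21 was 1.5-fold higher or lower in G2M than in G1 in either line. Of all genes, 5.61% were higher by that limit in CHLA9 and 6.34% in TC71. Of 15 tubulin-modifying enzymes 13 were counted, of which 4 were past 2-fold. TTLL7, a polyglutamylase, was at 0.503 CPM in CHLA9 and 16.5 CPM in TC71. VASH2 and SVBP, which form a tubulin detyrosinase, and ATAT1, the α-tubulin acetyltransferase, were 2.53-fold, 2.24-fold and 2.06-fold higher in CHLA9. Of 15 general microtubule-binding proteins, 13 were counted and 3 were past 2-fold, among them MAP7D1 (2.20-fold), higher in CHLA9, and MAPRE2 (5.04-fold), higher in TC71. Of 16 mitotic spindle proteins, all were counted and 2 were past 2-fold, NUMA1 (3.24-fold) and SPAG5 (2.52-fold), both higher in CHLA9. The share of all genes past 2-fold, 25.1%, stands beside each of these counts. Of the spindle proteins, 15 were at least 1.5-fold higher in G2M than in G1 in each line, against the same 5.61% and 6.34% of all genes. The phase lists themselves hold 9 of the 16. Of the 6 kinases known to phosphorylate stathmin, 4 were counted, none past 2-fold between the lines. CDK1 was at 139.2 CPM in CHLA9 and 160.7 CPM in TC71. CDK1 and AURKB are in the phase lists, so that their levels by phase are no result, and PAK1 and PRKACA, which are not, stayed under 1.5-fold between G2M and G1 in both lines.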

How the data were processed

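The 10x Genomics 3′ libraries were aligned to hg38 by the authors, who deposited the raw UMI counts of Cell Ranger 3.1.0 per gene and barcode, with no normalization. The authors' filters were not applied to the deposited matrices; the cell minimums used here are given in the report. Cell Ranger discards reads that match more than 1 gene.

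UMIs were summed over the kept cells of a line or phase and given as CPM. Levels have exact Poisson, shares Clopper-Pearson and ratios conditional binomial 95% intervals, which cover counting error only. Each line has 1 library, so nothing was tested, and genes at 10 CPM or more were counted past 2-fold between lines and 1.5-fold between phases. Phases came from CellCycleScoring in Seurat 5.3.0 (R 4.3.3), per library, on genes detected in at least 10 kept cells. Cells were thinned with numpy 2.4.6 (seed 1). Scrublet was run in scanpy 1.11.5, intervals came from scipy 1.17.1, tables from pandas 2.3.3 and plots from matplotlib 3.10.9, under Python 3.11.15. Ratios and intervals were tested on simulated Poisson counts, which hold no spread between cells or libraries beyond counting error. The cell line CHLA10 and the PDXs were not analysed here.

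The 10 genes and all lists were chosen with earlier results of these data known. By rule, up to 30 genes were to be named beside them, from the up to 6 genes of each list past 2-fold, largest first, the 2 most abundant of a list and, for each of the 10 genes at 50 CPM or more in both lines, the 3 genes of highest mean rho. This rule gives more than 30 genes. Genes past 2-fold were therefore named beyond that limit, and most of the most abundant ones left out, after their values were seen. AURKB, PAK1 and PRKACA were also named after that. Marker genes are named apart from this limit. AC092143.1 was chosen after its values were seen. Alternatives covered the cell filters, doublets, the CPM scale, the weight of cells, the phase lists and scoring, and the thinning depth. Some genes and sequences are not reported here.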

Additional observations from a re-analysis of the deposited data

Results flagged for a closer look

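STMN1 went in opposite directions in the lines in 3 of 4 comparisons along the cycle, with intervals that exclude 0 in each line, although every log2 ratio lay close to 0. G2M over S was 0.013 in CHLA9 and -0.070 in TC71, S over G1 was -0.041 and 0.068, and the highest over the lowest 25% of cells along the G2M list was 0.038 and -0.107. G2M over G1 was -0.027 in CHLA9 and -0.002 in TC71, where its interval (-0.04 to 0.04) held 0. With a single library a line, whether the lines differ here was not tested.

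The barcodes left out of every comparison also held UMIs of the 10 genes. In TC71, 5869 barcodes under the 5000 UMI minimum held them at 5637 CPM in all, against 6697 CPM in the kept cells, and 868 barcodes over the mitochondrial limit at 2543 CPM. In CHLA9 the values were 2093 CPM in 277 barcodes under the minimum and 3437 CPM in 276 over the mitochondrial limit, against 8046 CPM in the kept cells. Within the shallow TC71 barcodes, TUBB2B was at 43.6 CPM and TUBA1A at 170.2 CPM, so that TUBB2B was as high there as in the kept cells.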

How the results depend on the processing

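The count of genes past 2-fold between the lines stayed at 2 under all 6 alternatives, and the neuronal-associated share of TC71 stayed within its interval under all 5. That of CHLA9 was 2.03% with each cell weighted equally and 1.97% with at most 10% mitochondrial UMIs, both outside its interval. With the highest against the lowest 25% of cells in place of phases, 2 genes in CHLA9 and 1 in TC71 were at least 1.5-fold higher, and the other 11 alternatives in each line left the counts at 1 and 0. No called ratio changed sign. Of the single values, 43 of 120 CPM values, 17 of 54 ratios between lines, 39 of 216 ratios between phases and 31 of 40 shares of cells left their counting intervals. The TC71 phases were the least settled, with 241 G1 cells here and 444 when all genes were scored, and the log2 ratio of TUBB4B there ranged from 0.21 to 0.59 (1.03 to 1.72 in CHLA9). The log2 ratio of TUBB2B in CHLA9 ranged from -0.30 to 0.09. No paired analysis was possible because a line is a single library, with no number to pair on, and nothing was tested. TUBB3 and STMN2 had too few counts for any comparison.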
